A study of Mus musculus with 18 samples.

Results

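Molecular chaperones hold, fold and refold other proteins. In the cytosol, HSP70 binds exposed stretches of newly made or unfolded proteins under the control of J proteins, which stimulate its ATPase, and of nucleotide exchange factors such as the HSP110 proteins and Bag3. Clients can pass from HSP70 to HSP90 through the adaptor Stip1, and the ring-shaped chaperonin TRiC/CCT folds actin, tubulin and other clients inside a closed chamber. Mitochondria have their own set, with Hspa9 as the HSP70 and Hspd1 with Hspe1 as the chaperonin. Heat shock factor 1, encoded by Hsf1, raises many of these genes when unfolded proteins accumulate, and the stress-inducible HSP70 genes Hspa1a and Hspa1b are its best-known targets.

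The genes described here are 37 mouse genes of this network, of 55414 in the table: 5 HSP70 and HSP110 genes, 2 HSP90 genes, 4 mitochondrial genes, 8 J protein genes, 8 co-chaperone genes, 8 chaperonin subunit genes, the small heat shock protein gene Hspb1, and Hsf1. Of the 37, 35 passed the filter on low counts that left 17901 genes, and Hspa1a and Hspa1b did not. Dnajb13 was selected on its rise in the knockdowns, so its values are given as a description with no test, which leaves 34 tested genes. These 34 were better counted than most genes, with a median of 2358 reads per library against 181 over all genes tested, so a given fold change was more readily called in them.

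RNA-seq was performed on N2A cells, a mouse neuroblastoma line, 72 h after transfection with Scramble, Fmr1 or Zfp598 siRNA. Each condition comprised 2 siRNAs, A and B, with 3 libraries each, giving 6 siRNA groups and 18 libraries. All groups therefore carried a siRNA and the transfection reagent, and no untransfected cells were analysed here. Fmr1 encodes FMRP, an RNA-binding repressor of translation, and Zfp598 encodes an E3 ligase that marks collided ribosomes, so the comparison asks whether losing either protein is accompanied by a change in chaperone mRNA. Fmr1 and Zfp598 mRNA were each lower in their own knockdown (KD), at 22.4 against 60.2 and at 41.1 against 118 CPM (TMM-scaled counts-per-million units).

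Library totals ranged from 7674724 to 15414590 reads. The most counted feature took 5.00% to 25.8% of a library, with the largest share in Zfp598 KD replicate A3. Neuroblastoma and neuron markers were present (Tubb3 at 302 to 543 CPM), although Nefl and Nefm did not exceed 0.405 CPM. The 14 listed markers summed to 1909 to 2044 CPM with Scramble siRNA A, 1189 to 1316 with Scramble siRNA B, 1299 to 1419 and 1438 to 1649 with Fmr1 siRNA A and B, and 1700 to 1784 and 1472 to 1659 with Zfp598 siRNA A and B. Each knockdown group lay apart from the Scramble group of its letter, and the part of these markers in the results was not tested. Of 10 listed pluripotent cell markers, 8 were highest in Fmr1 KD replicate B1 (Nanog at 7.42 CPM, Zfp42 at 6.88 CPM), so Fmr1 siRNA B is also given without that library. The summed pluripotent list, mostly Lin28a, was at 78.3 to 91.4 CPM with Scramble siRNA A, 136 to 149 with Scramble siRNA B, 181 to 196 and 132 to 156 with Fmr1 siRNA A and B, and 138 to 184 and 121 to 129 with Zfp598 siRNA A and B. The 25 listed proliferation genes summed to 1401 to 1563 CPM with Scramble siRNA A and to 2668 to 3061 CPM with Scramble siRNA B, and their part in the results was not tested. In bulk RNA, fewer cells of a type and less RNA per cell cannot be told apart.

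Heat shock factor binds repeated GAA units in alternating orientation. Promoter windows from 250 bases before to 50 bases after a gene's start were held by RefSeq (GRCm38.p6) for 31 of the 37 genes. Hspa8, Hsp90aa1, Hsp90ab1, Hspa9, Cct4 and Hsf1 had no window and were not searched. Both strands were searched for 3 units (GAANNTTCNNGAA or TTCNNGAANNTTC), which 0.662% of the 27025 gene symbols with a window contained. They were found at Hsph1, Hspd1, Hspe1, Dnajb6 and Chordc1. The 2-unit forms lie within the 3-unit forms and are common: GAANNTTC was in 9.04% and TTCNNGAA in 9.60% of all symbols, and in 12 and 9 of the 31 chaperone genes. The 30-base windows below are shown because the inducible genes and the genes with the fullest element can then be read beside their counts. Capitals mark the matched stretch with its spacer bases. The windows lie at chr5:149636287-149636316 (minus strand) for Hsph1, chr1:55088053-55088082 for the divergent pair Hspd1 (minus) and Hspe1 (plus), chr5:29735844-29735873 (plus) for Dnajb6, chr9:18292260-18292289 (plus) for Chordc1, and chr17:34972242-34972271 and chr17:34959324-34959353 (minus) for Hspa1a and Hspa1b.
Hsph1: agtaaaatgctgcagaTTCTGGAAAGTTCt
Hspd1: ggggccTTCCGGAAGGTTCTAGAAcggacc
Hspe1: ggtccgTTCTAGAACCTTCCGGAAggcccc
Dnajb6: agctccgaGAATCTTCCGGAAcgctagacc
Chordc1: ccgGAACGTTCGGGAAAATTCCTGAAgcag
Hspa1a: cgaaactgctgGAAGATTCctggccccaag
Hspa1b: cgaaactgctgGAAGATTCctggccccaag

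The Hspd1 and Hspe1 windows are the same bases read on opposite strands, since the pair shares a promoter. The Hspa1a and Hspa1b windows were identical over all 30 bases shown, and their full promoter windows matched at 296 of 300 positions.

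Levels of the chaperone mRNAs spanned several orders of magnitude. Per kilobase of exon, Hsp90ab1, the constitutive cytosolic HSP90, was highest at 512 CPM per kb (mean of 18 libraries). Ptges3, the HSP90 co-chaperone p23, followed at 221, Cct2 at 205 and Hspa8, the constitutive HSP70, at 202 CPM per kb. The length counts every annotated exon of a gene, 8680 bases for Hspa8 and 2228 for Ptges3. Ranks between genes therefore depend on the annotation: without the length, Hspa8 was at 1757 CPM and Ptges3 at 492. Apart from Cct3 at 40.6 CPM per kb, the chaperonin subunits lay between 81.5 and 205 CPM per kb. The J protein genes were lower, from 0.963 CPM per kb for Dnajb13 to 48.2 for Dnaja2.

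**Figure D1:**
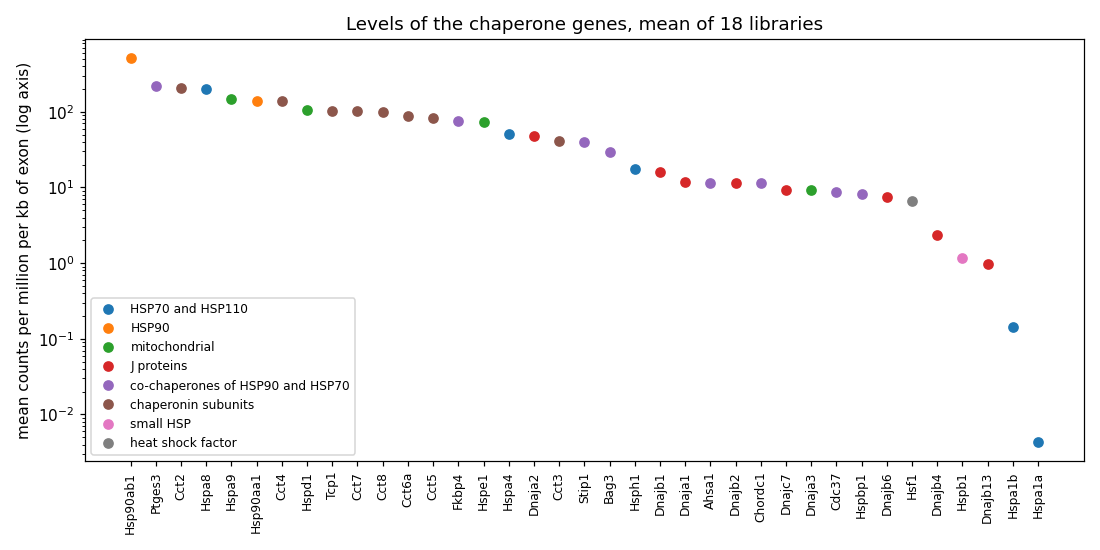
Mean level of each chaperone gene over 18 libraries, in CPM per kb of exon on a log axis, coloured by role. Hsp90ab1 is highest at 512 and Hspa1a lowest, with the HSP90 genes, Hspa8, Hspa9 and 7 of the 8 chaperonin subunits above every J protein.

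The stress-inducible HSP70 genes had almost no counted reads. Hspa1a had 0 reads in 15 libraries and 1 read in Fmr1 KD replicate A2 and in Zfp598 KD replicates B2 and B3. Hspa1b had 4, 3 and 2 reads with Scramble siRNA A and 1, 1 and 1 with Scramble siRNA B. With Fmr1 siRNA it had 5, 10 and 7 reads (A) and 13, 7 and 8 reads (B). With Zfp598 siRNA it had 4, 2 and 1 reads (A) and 5, 12 and 11 reads (B). Summed over the 3 libraries of a group, Hspa1b thus had 9 and 3 reads in the Scramble groups, 22 and 28 with Fmr1 siRNA A and B, 7 with Zfp598 siRNA A and 28 with Zfp598 siRNA B. Per depth, every library of Fmr1 siRNA B (0.490 to 0.877 CPM) and of Zfp598 siRNA B (0.372 to 0.959 CPM) lay above the highest Scramble library, at 0.352 CPM. Fmr1 siRNA A, from 0.338 CPM, and Zfp598 siRNA A, from 0.178 CPM, overlapped the Scramble range. With no filter on low counts, 37275 genes were tested. The adjusted p of Hspa1b was then 0.0475 in pooled Fmr1 KD, and 0.151 in pooled Zfp598 KD, each against all 6 Scramble KD libraries (fitted log2 fold changes 1.93 and 1.77). Against Scramble siRNA B it was 0.00602 for Fmr1 siRNA B and 0.00218 for Zfp598 siRNA B (3.07 and 3.31). At so few reads the fitted fold depends on the prior count. For the A siRNAs of Fmr1 and Zfp598 it was 0.483 and 1. Over the transcripts, 62.3% of the 50-base windows of Hspa1b also occur in Hspa1a. How reads shared by both were counted is not stated, so reads of the pair cannot be told apart there. Shared reads that were dropped would lower the counts of both genes, and whether any were dropped was not tested.

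Hsf1 itself passed in none of the 11 contrasts, nor in the test for any difference among the 6 groups. Its level was 63.3, 65.8 and 71.0 CPM (lowest, median and highest) in Scramble KD, 62.7, 67.4 and 73.2 in Fmr1 KD and 54.3, 61.1 and 73.1 in Zfp598 KD. The log2 fold change was 0.03 ± 0.08 (SE) in Fmr1 KD and -0.12 ± 0.08 in Zfp598 KD (adjusted p = 0.887 and 0.486). Hspb1, which like Hspa1b is strongly heat-inducible, was also low, at 0.320 to 2.83 CPM, and passed in no contrast (log2 fold change 0.61 ± 0.34 in Fmr1 KD, adjusted p = 0.318). Of its transcript windows, 41.8% are shared, mostly with a processed copy.

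With the 2 siRNAs of each target pooled, few chaperone genes passed. The pooled model takes the 6 libraries of a condition as independent, although 3 share each siRNA. Its p-values therefore do not take the 2 siRNAs of a target as the unit of replication. In Fmr1 KD, 3 of 34 were higher and 0 lower, against 2.73% higher and 3.80% lower of all 17901 genes, and 11 had an unadjusted p under 0.05. In Zfp598 KD, 0 of 34 were higher and 1 lower, against 0.916% and 1.04% of all genes, and 9 had an unadjusted p under 0.05. The median log2 fold change over the 34 was -0.03 in Fmr1 KD and -0.01 in Zfp598 KD, beside 0.00 and 0.01 over all genes. Of the 34 tested genes, none that passed in any contrast changed by more than 2-fold.

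The 3 genes that rose in Fmr1 KD serve HSP90, HSP70 and the chaperonin. Hsp90aa1, the inducible cytosolic HSP90 (chr12:110656842-110669166, GRCm39), was at 503, 538 and 593 CPM (lowest, median and highest) in Scramble KD and at 569.8, 744 and 901 in Fmr1 KD. The 2 ranges overlapped, and the log2 fold change was 0.44 ± 0.11 (SE; adjusted p = 0.0185). Hsph1, the HSP110 exchange factor of HSP70 (chr5:149537636-149560156), was at 133, 179 and 207 CPM in Scramble KD and at 195, 239 and 266 in Fmr1 KD, a log2 fold change of 0.43 ± 0.13 (adjusted p = 0.0447). Cct3, the gamma subunit of TRiC/CCT (chr3:88204289-88230423), was at 263, 272 and 311 CPM in Scramble KD and at 335, 355 and 370.1 in Fmr1 KD. All 6 Fmr1 KD libraries lay above all 6 Scramble KD libraries for Cct3, with a log2 fold change of 0.34 ± 0.07 (adjusted p = 0.00745). The libraries were also fully separated for Dnajc7 (all higher in Fmr1 KD) and Cct5 (all lower), which did not pass in this contrast. Cct5, another chaperonin subunit, passed as lower with Fmr1 siRNA B alone. Hsp90aa1, Hsph1 and Cct3 passed without Fmr1 KD replicate B1 as well. Cct3 passed whichever of the 18 libraries was left out, Hsp90aa1 was lost without Fmr1 KD replicate A2 or A3 (0.38 and 0.39), and the Hsph1 call was lost in 9 of the 18 (0.36 to 0.48 over all 18).

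The gene that fell in Zfp598 KD was Dnajb4, a cytosolic J protein (chr3:151884148-151916665). It was at 28.8, 31.8 and 37.6 CPM in Scramble KD and at 18.9, 23.3 and 31.1 in Zfp598 KD, a log2 fold change of -0.44 ± 0.11 (adjusted p = 0.0453). That call lay close to the threshold and was lost on leaving out any of 17 of the 18 libraries, with fold changes from -0.53 to -0.38 throughout.

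Set against Scramble A or B, whichever shared its letter, each siRNA gave more calls in both directions. No label ties a siRNA to the Scramble siRNA of its letter. Fmr1 siRNA A raised 4 and lowered 3 of the 34 genes (10.0% and 13.6% of all genes), and Fmr1 siRNA B raised 6 and lowered 5 (11.3% and 11.3%). Zfp598 siRNA A raised 2 and lowered 7 (6.30% and 5.64%), and Zfp598 siRNA B raised 7 and lowered 9 (12.4% and 14.4%). Without Fmr1 KD replicate B1, Fmr1 siRNA B gave 10 calls, 9 of them among the 11. The count for Zfp598 siRNA A rested on single libraries: 9 genes passed with all, 3 without Scramble KD replicate A2 or A3, 2 without Zfp598 KD replicate A2 and 16 without Zfp598 KD replicate A1. The count over all genes moved the same way, from 2138 to 1173, 1419, 1082 and 4699. For Zfp598 siRNA B the count was 16, and 10 without Zfp598 KD replicate B1, beside 4798 and 3594 over all genes. The Fmr1 and Zfp598 contrasts of a letter share their 3 Scramble libraries. Few calls were shared by the siRNAs of a target. For Fmr1, 2 genes rose with both (Hsph1 and Cct3), none fell with both, 1 moved in opposite directions (Ptges3), 4 passed with siRNA A alone and 8 with siRNA B alone. For Zfp598, 2 fell with both (Dnaja3 and Hspe1), none rose with both, 4 moved in opposite directions (Hsph1, Dnaja1, Ahsa1 and Cct4), 3 passed with siRNA A alone and 10 with siRNA B alone.

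**Figure D2:**
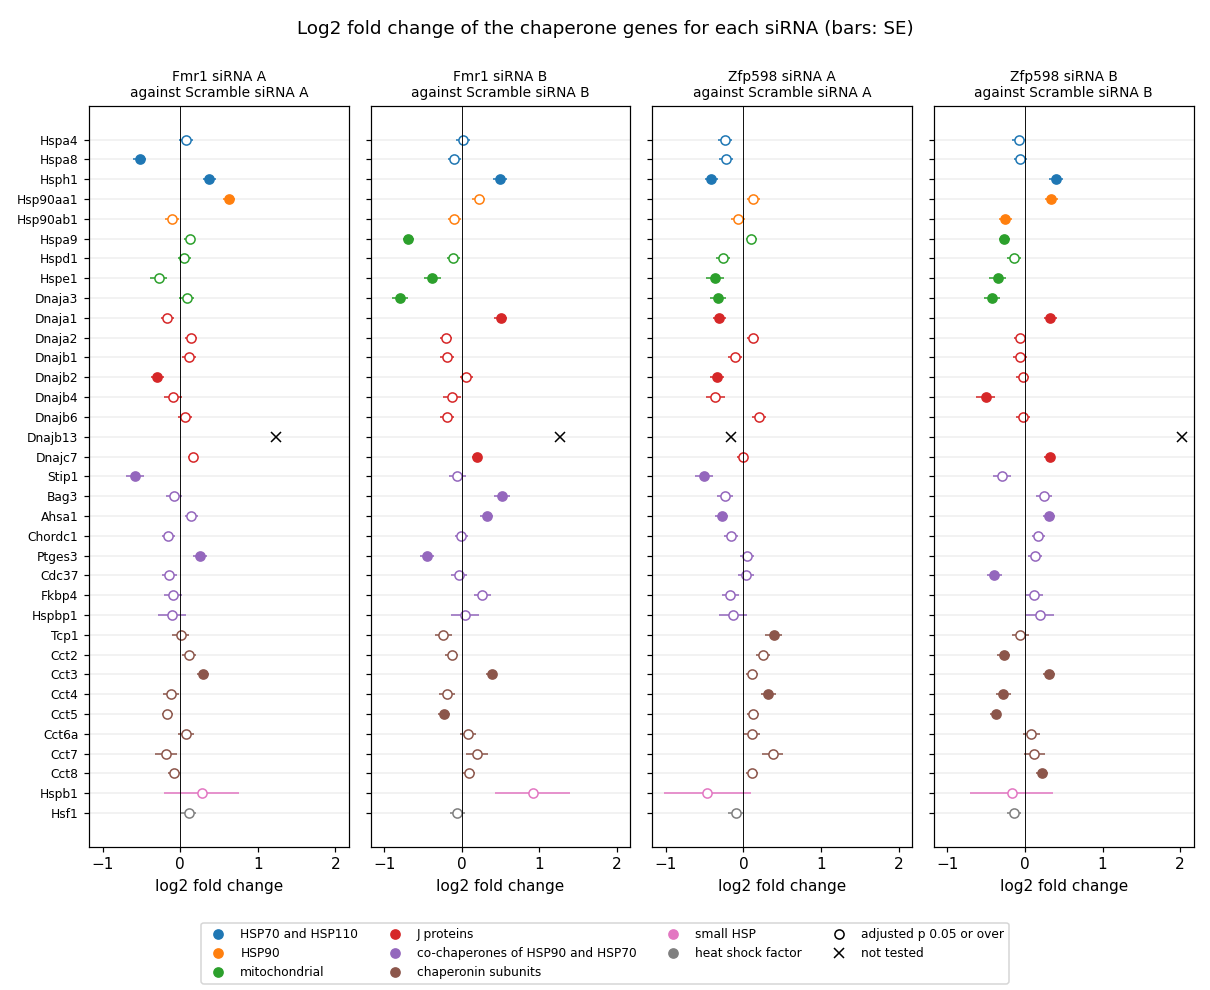
Log2 fold change of each of the 35 chaperone genes past the filter (rows, coloured by role) for each siRNA against its lettered Scramble control (A with A, B with B), with bars for the SE. Filled circles passed at an adjusted p under 0.05, open circles did not, and crosses mark Dnajb13, which was not tested. Hsph1 lies right of 0 in every panel except Zfp598 siRNA A, at -0.41.

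The siRNAs of one target also differed from each other, and the Scramble pair did so too. Between Scramble siRNA B and A, 4 of the 34 genes were higher and 8 lower (10.4% and 12.2% of all genes). The control level thus differed between the Scramble groups, and siRNA identity cannot be told apart from whatever else differed between them. Between Fmr1 siRNA B and A, 1 was higher and 9 lower (13.3% and 11.1%), and between Zfp598 siRNA B and A, 6 were higher and 9 lower (15.6% and 19.7%). The proliferation genes moved with the letter as well: 25 of 25 were higher in Scramble siRNA B than A (median log2 fold change 0.89), 24 in Fmr1 siRNA B than A (0.76) and 11 in Zfp598 siRNA B than A (0.25, with 2 lower). Over all 6 groups, 28 of 34 genes differed, against 63.3% of all genes. The 6 that did not were Hsp90ab1, Chordc1, Hspbp1, Cct6a, Hspb1 and Hsf1.

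The difference between the 2 siRNA effects of a target, each measured against the Scramble siRNA of its letter, was tested directly. Any difference between the Scramble groups enters this test. For Dnajb2 the Fmr1 effect was higher with siRNA B (0.36), although its mean was 42.3 CPM with Fmr1 siRNA B and 53.4 with A. Its means were 40.6 CPM with Scramble siRNA B and 65.7 with A. For Fmr1, the effect was higher with siRNA B for 5 genes and lower for 5 (12.2% and 9.65% of all genes). For Zfp598, it was higher with siRNA B for 5 and lower for 6 (10.1% and 11.9%). The chaperone genes are counted more deeply than most genes, which favours calls, so nothing particular to them as a class is read from these counts.

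**Figure D3:**
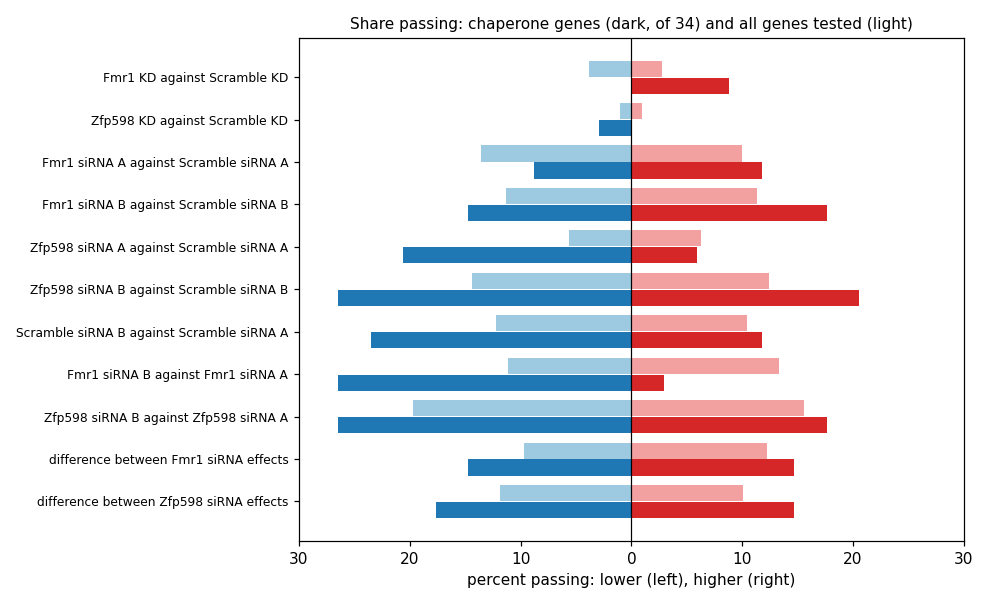
Percent of the 34 tested chaperone genes (dark bars) and of all 17901 genes (light bars) that passed as lower (left, blue) or higher (right, red) in each of the 11 contrasts. In the pooled contrasts 3 of 34 (Fmr1 KD, higher) and 1 of 34 (Zfp598 KD, lower) passed, and in the Zfp598 siRNA B contrast 9 of 34 were lower.

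Among the HSP70 and HSP110 genes, Hsph1 passed with all 4 siRNAs, in a direction that differed between them. It was at 193, 207 and 201 CPM with Scramble siRNA A and at 146, 133 and 164 with Scramble siRNA B. With Fmr1 siRNA A it was at 259, 256 and 266 CPM, and with Fmr1 siRNA B at 195, 205 and 223, above the matching Scramble libraries in both cases (log2 fold changes 0.38 ± 0.09 and 0.49 ± 0.09, adjusted p = 0.00309 and 0.000334). With Zfp598 siRNA A it was at 164, 134 and 154 CPM, below Scramble siRNA A (log2 fold change -0.41 ± 0.09, adjusted p = 0.00430). With Zfp598 siRNA B it was at 192, 206 and 188 CPM, above Scramble siRNA B (0.40 ± 0.09, adjusted p = 0.00179). The 2 Zfp598 siRNAs thus gave opposite effects, which differed by 0.82 ± 0.12 (adjusted p = 8.04e-05). The Scramble pair itself differed for Hsph1 by -0.44 ± 0.09 (adjusted p = 0.00101), and against all 6 Scramble libraries neither Zfp598 siRNA passed, at -0.19 and 0.18.

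Hspa8 passed with Fmr1 siRNA A. It was at 2037, 2437 and 1996 CPM with Scramble siRNA A and at 1459.5, 1576 and 1465 with Fmr1 siRNA A, with no overlap (log2 fold change -0.52 ± 0.09, adjusted p = 0.000175). With Fmr1 siRNA B it was at 1595, 1619 and 1669 CPM, beside 1664, 1703 and 1846 with Scramble siRNA B (-0.09 ± 0.09, adjusted p = 0.484), and the 2 effects differed by 0.43 ± 0.12 (adjusted p = 0.0167). Hspa4, another HSP110 exchange factor, passed against Scramble with no siRNA.

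Hsp90aa1 also differed between the Fmr1 siRNAs. It was at 575, 593 and 531 CPM with Scramble siRNA A and at 839, 901 and 884 with Fmr1 siRNA A (log2 fold change 0.63 ± 0.08, adjusted p = 1.01e-05). With Scramble siRNA B it was at 532, 503 and 543 CPM and with Fmr1 siRNA B at 569.8, 616 and 649, higher without overlap but not past the threshold (0.22 ± 0.08, adjusted p = 0.0616). The siRNA A effect was the larger by 0.41, and the difference passed (-0.41 ± 0.12 for B minus A, adjusted p = 0.0139). Zfp598 siRNA B, at 683, 673 and 641 CPM, raised Hsp90aa1 by 0.34 ± 0.08 (adjusted p = 0.00417). The constitutive Hsp90ab1 was lower with Zfp598 siRNA B alone (-0.25 ± 0.09, adjusted p = 0.0347). Of the transcript windows of Hsp90aa1, 34.6% also occur elsewhere, mostly in a processed copy, and how such reads were counted is not stated.

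**Figure D4:**
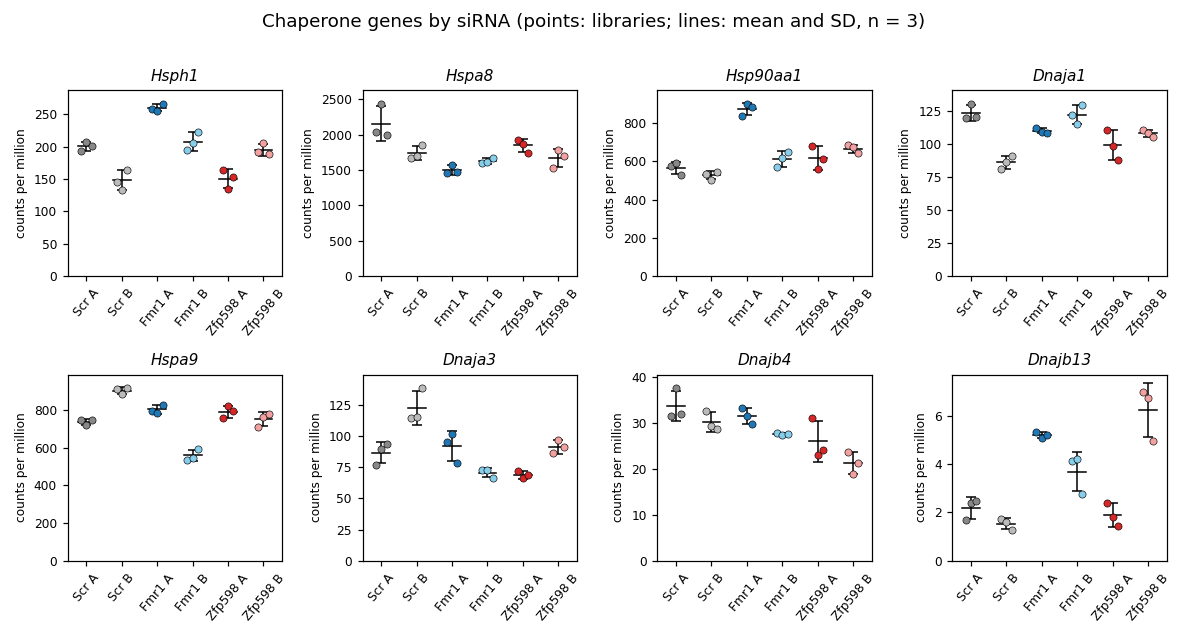
CPM of 8 chaperone genes in each library (points, axis from 0), by siRNA group, with lines for the mean and SD of 3 libraries; Scr is Scramble. Hsph1 is highest with Fmr1 siRNA A (256 to 266), Hspa9 and Dnaja3 are lower with Fmr1 siRNA B than with Scramble siRNA B, and Dnajb13 is highest with Zfp598 siRNA B (4.94 to 7.00).

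The mitochondrial chaperones held the largest decreases with Fmr1 siRNA B, where 3 of 4 fell and 0 rose. Hspa9, the mitochondrial HSP70, was at 909.9, 882 and 915 CPM with Scramble siRNA B and at 535, 546 and 594 with Fmr1 siRNA B (log2 fold change -0.69 ± 0.07, adjusted p = 6.68e-07). Dnaja3, the J protein partner of Hspa9, was at 114, 115 and 138 CPM with Scramble siRNA B and at 72.8, 72.5 and 66.7 with Fmr1 siRNA B (-0.79 ± 0.10, adjusted p = 1.09e-05). All 3 Fmr1 siRNA B libraries lay below all 3 Scramble siRNA B libraries for both genes. With Fmr1 siRNA A, Hspa9 was at 795, 786 and 827 CPM beside 747, 718 and 747 with Scramble siRNA A (0.12 ± 0.07, adjusted p = 0.235). Dnaja3 was at 95.2, 102 and 78.5 CPM with Fmr1 siRNA A beside 77.0, 89.5 and 93.7 with Scramble siRNA A (0.08 ± 0.10, adjusted p = 0.629). The 2 Fmr1 siRNA effects differed by -0.81 ± 0.10 for Hspa9 (adjusted p = 6.68e-06) and by -0.88 ± 0.14 for Dnaja3 (adjusted p = 0.000159), and Scramble siRNA B was itself above Scramble siRNA A, by 0.29 ± 0.07 and 0.50 ± 0.10 (adjusted p = 0.00518 and 0.00133).

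Hspa9 and Dnaja3 changed less with the Zfp598 siRNAs than with Fmr1 siRNA B. Dnaja3 was at 72.3, 66.0 and 68.8 CPM with siRNA A and 86.1, 96.7 and 91.0 with siRNA B (log2 fold changes -0.33 ± 0.10 and -0.43 ± 0.10 against the matching Scramble siRNA, adjusted p = 0.0448 and 0.00392). Hspa9 was lower with Zfp598 siRNA B, at 709, 764 and 778 CPM (-0.27 ± 0.07, adjusted p = 0.00825). With Zfp598 siRNA A it was at 758 to 822 CPM, above the 718 to 747 of Scramble siRNA A, and did not pass (0.10). Hspe1, the co-chaperonin HSP10, fell with 3 of the 4 siRNAs: Fmr1 siRNA B (-0.38 ± 0.11), Zfp598 siRNA A (-0.37 ± 0.11) and Zfp598 siRNA B (-0.35 ± 0.11), with adjusted p from 0.0145 to 0.0344. With Fmr1 siRNA A its fold change was -0.28 ± 0.11 (adjusted p = 0.0724). Its divergent neighbour Hspd1, the chaperonin HSP60 printed above on the opposite strand of the same window, passed in no contrast. Beside these values, 17 of 23 tested ATF4 target genes, a stress pathway set, were lower with Fmr1 siRNA B and 2 higher (median -0.50), while with Fmr1 siRNA A 3 were lower and 3 higher (median 0.05). Of all genes, 11.3% were lower and 11.3% higher with Fmr1 siRNA B, and 13.6% and 10.0% with Fmr1 siRNA A. The part of the ATF4 pathway in the mitochondrial values was not tested.

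The J protein genes were mixed. Dnaja1, a partner of Hspa8, was at 81.3, 86.2 and 91.2 CPM with Scramble siRNA B, and at 122, 115 and 129 with Fmr1 siRNA B (log2 fold change 0.50 ± 0.08, adjusted p = 0.000167). With Scramble siRNA A it was at 119.9, 131 and 120.1 CPM and with Fmr1 siRNA A at 112, 109 and 109 (-0.17 ± 0.08, adjusted p = 0.159). The Scramble siRNAs themselves differed by -0.52 ± 0.08 for siRNA B against A (adjusted p = 0.000122). The Zfp598 siRNAs moved Dnaja1 in opposite directions, -0.31 ± 0.08 with A (111, 98.5 and 87.9 CPM) and 0.32 ± 0.08 with B (111, 108 and 105 CPM). Those effects differed by 0.64 ± 0.12 (adjusted p = 0.000565), although the CPM of the 2 Zfp598 groups overlapped. Of the Dnaja1 transcript windows, 66.5% are shared with Smu1, which passed in no contrast.

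Other J protein genes differed mainly between siRNAs. Dnajb2, a neuronal J protein, was at 69.1, 60.0 and 68.0 CPM with Scramble siRNA A and at 40.0, 42.5 and 39.3 with Scramble siRNA B (-0.69 ± 0.09, adjusted p = 6.58e-06), and was lower with siRNA B than with siRNA A of Fmr1 and of Zfp598 as well (-0.34 ± 0.09 and -0.38 ± 0.09). Dnajb6, which holds polyglutamine proteins soluble, was at 73.3, 78.2 and 65.2 CPM with Scramble siRNA A and at 97.7, 92.8 and 90.1 with Scramble siRNA B (0.37 ± 0.09, adjusted p = 0.00491), and did not pass against Scramble with any siRNA. Dnajb4 was at 23.7, 18.9 and 21.2 CPM with Zfp598 siRNA B, below Scramble siRNA B at 32.7, 29.3 and 28.8 (-0.51 ± 0.12, adjusted p = 0.00299), and at 31.1, 22.9 and 24.0 with Zfp598 siRNA A, below 31.6, 37.6 and 31.9 with Scramble siRNA A (-0.36 ± 0.12, adjusted p = 0.0517).

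Dnajb13, a J protein of motile cilia and sperm flagella, was included because it rose in the knockdowns, so the following is a description only. It was at 1.67, 2.38 and 2.48 CPM with Scramble siRNA A and at 1.71, 1.61 and 1.28 with Scramble siRNA B. It was at 5.34, 5.09 and 5.18 CPM with Fmr1 siRNA A and at 4.11, 4.20 and 2.75 with Fmr1 siRNA B, above every Scramble library. With Zfp598 siRNA A it was at 2.41, 1.81 and 1.42 CPM, within the Scramble range, and with Zfp598 siRNA B at 7.00, 6.72 and 4.94, above it. The log2 fold changes against the matching Scramble siRNA were 1.24 and 1.26 for Fmr1 siRNA A and B, and -0.16 and 2.02 for Zfp598 siRNA A and B. Dnajb13 (chr7:100150133-100164167, minus strand) overlaps Ucp2 on the opposite strand, 28.1% of its transcript windows occur in Ucp2, and whether reads were assigned by strand is not stated. Ucp2 itself was at 169 ± 27.4 and 139.9 ± 11.9 CPM (mean ± SD, n = 3) with Scramble siRNA A and B, 144 ± 11.5 and 167 ± 7.52 with Fmr1 siRNA A and B, and 152 ± 25.4 and 125 ± 6.32 with Zfp598 siRNA A and B, and passed against Scramble with no siRNA, although its 2 Fmr1 effects differed (0.49 ± 0.16, adjusted p = 0.0388).

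Among the co-chaperones, Stip1, the HSP70-HSP90 adaptor, passed as lower with the A siRNAs of Fmr1 and Zfp598 alone. It was at 140.0, 189 and 156 CPM with Scramble siRNA A, at 101, 114 and 109 with Fmr1 siRNA A (log2 fold change -0.58 ± 0.11, adjusted p = 0.000810) and at 109, 106 and 127 with Zfp598 siRNA A (-0.51 ± 0.12, adjusted p = 0.00673). Both contrasts use the same Scramble siRNA A libraries, whose Stip1 mean was 161 CPM, beside 131 with Scramble siRNA B. With the B siRNAs the Stip1 mean was 126 CPM (Fmr1) and 107 CPM (Zfp598), the latter the lowest of the 6 groups. Bag3, a co-chaperone of HSP70 in selective autophagy, was at 67.3, 68.4 and 65.4 CPM with Scramble siRNA B and at 94.1, 97.1 and 95.7 with Fmr1 siRNA B (0.51 ± 0.10, adjusted p = 0.00108). With Fmr1 siRNA A it was at 72.5, 76.0 and 73.6 CPM, within the 70.2 to 89.0 of Scramble siRNA A, and the effects differed by 0.59 ± 0.15 (adjusted p = 0.00553).

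Against the Scramble siRNA of the same letter, Ptges3 moved in opposite directions with the Fmr1 siRNAs. It was at 412, 463 and 409 CPM with Scramble siRNA A and 499, 548 and 485 with Fmr1 siRNA A (0.25 ± 0.09, adjusted p = 0.0497). With Scramble siRNA B it was at 554, 537 and 572 CPM and with Fmr1 siRNA B at 385, 405 and 428 (-0.45 ± 0.09, adjusted p = 0.00123). The Scramble groups themselves lay apart for Ptges3, with means of 428 CPM (A) and 554 CPM (B) and no overlap. That gap enters the opposite directions. The means with Fmr1 siRNA A and B were 511 and 406 CPM. Ahsa1, which stimulates the HSP90 ATPase, rose with Fmr1 siRNA B (0.32) and Zfp598 siRNA B (0.31) and fell with Zfp598 siRNA A (-0.28). Of its transcript windows, 18.5% are shared with Ism2, which also rose with Fmr1 siRNA B (0.96 ± 0.28, adjusted p = 0.0157) and passed in no other contrast. Cdc37, which brings kinases to HSP90, fell with Zfp598 siRNA B (-0.40 ± 0.10, adjusted p = 0.00533), whereas Fkbp4, Hspbp1 and Chordc1 passed against Scramble with no siRNA.

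The 8 TRiC/CCT subunits, which assemble into 1 complex, passed in different directions. With Zfp598 siRNA A, 2 rose and 0 fell, and all 8 had log2 fold changes between 0.11 and 0.39. Tcp1, the alpha subunit, was at 641, 508 and 569 CPM with Scramble siRNA A and 641, 741 and 877 with Zfp598 siRNA A (0.39 ± 0.11, adjusted p = 0.0233). Cct4 was at 1101, 833 and 993 CPM and at 1171, 1362 and 1127 in the same groups (0.32 ± 0.10, adjusted p = 0.0426). The Zfp598 siRNA A libraries were wide in these genes, and 4 and 14 of the 18 left-out libraries removed the calls for Tcp1 and Cct4.

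With Zfp598 siRNA B, 2 subunits rose (Cct3 by 0.31, Cct8 by 0.22) and 3 fell (Cct2 by 0.28, Cct4 by 0.28 and Cct5 by 0.38 on the log2 scale). Zfp598 siRNA B against Zfp598 siRNA A gave 5 lower and 0 higher subunits. Cct4 differed most, with 765, 785 and 915 CPM with siRNA B (-0.57 ± 0.10, adjusted p = 0.000262). Cct7 was at 775, 1052 and 1166 CPM with siRNA A and at 608, 699 and 749 with siRNA B (-0.54 ± 0.14, adjusted p = 0.00485), and Tcp1 fell by 0.53, Cct5 by 0.43 and Cct2 by 0.41. Set against the matching Scramble groups, 4 of the 8 effects differed between the Zfp598 siRNAs, among them Cct2 (813, 887 and 856 CPM with A against 589, 671 and 665 with B, difference -0.53 ± 0.12, adjusted p = 0.00343). In the Zfp598 siRNA A libraries the top feature held 5.67% to 25.8% of reads. With it left out, all 15 chaperone genes that differed between the Zfp598 siRNAs, and all 11 whose effects differed, still passed. That setting changes the scaling alone. The share was 5.67%, 15.2% and 25.8% in Zfp598 KD replicates A1, A2 and A3. Tcp1, Cct3 and Cct7 rose in that order, and Cct2 and Cct4 did not. The part of this share in the subunit levels was not tested. The proliferation genes moved here too. With Zfp598 siRNA A, 14 of 25 were higher and 0 lower (median 0.38), against 6.30% and 5.64% of all genes. With Zfp598 siRNA B, 1 was higher and 10 lower (median -0.23), against 12.4% and 14.4%.

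**Figure D5:**
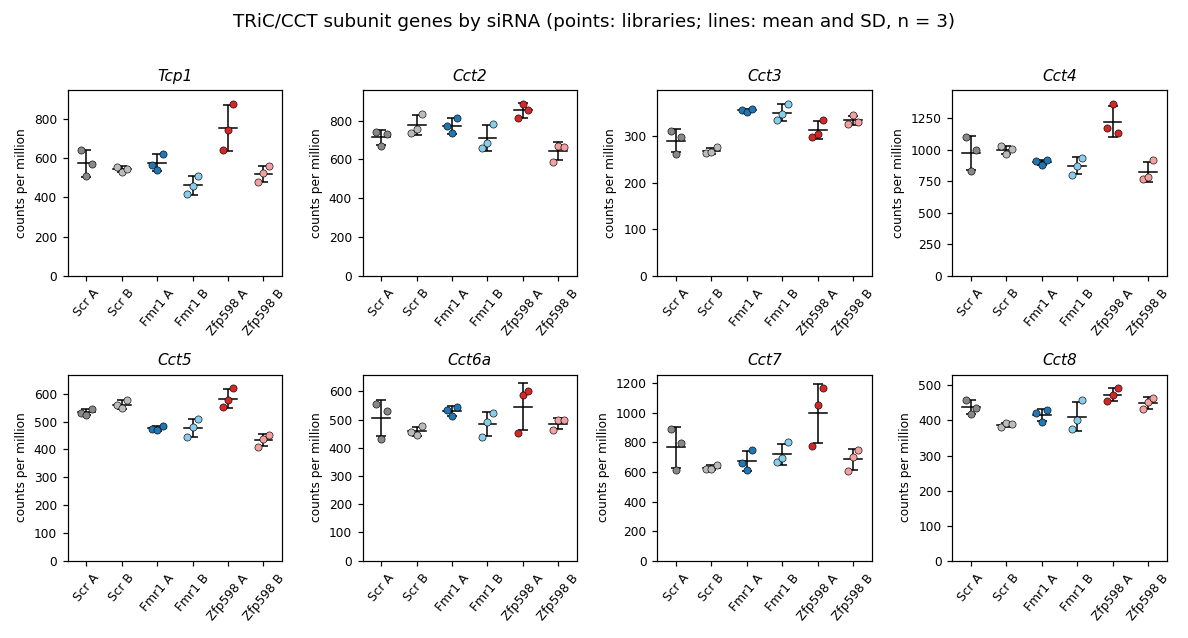
CPM of the 8 TRiC/CCT subunit genes in each library (points, axis from 0), by siRNA group, with lines for the mean and SD of 3 libraries; Scr is Scramble. Zfp598 siRNA A has the highest group mean for 7 of the 8 subunits, and Cct3 is highest in the Fmr1 groups (335 to 370.1).

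Cct3 rose with 3 of the 4 siRNAs. It was at 311, 263 and 298 CPM with Scramble siRNA A and 357, 353 and 359 with Fmr1 siRNA A (0.30 ± 0.08, adjusted p = 0.00685), and at 264, 267 and 277 with Scramble siRNA B and 335, 347 and 370.1 with Fmr1 siRNA B (0.38 ± 0.08, adjusted p = 0.000900). Zfp598 siRNA B raised it as well, to 327, 346 and 330.3 CPM (0.31 ± 0.08, adjusted p = 0.00412), and Zfp598 siRNA A, at 299, 305 and 335, did not (0.11 ± 0.08, adjusted p = 0.392). The 2 Fmr1 effects did not differ past the threshold (0.09 ± 0.11, adjusted p = 0.624).

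Of 69 further chaperone genes outside the 37, 64 were tested. In Fmr1 KD, 1 was higher and 4 lower (2.73% and 3.80% of all genes). In Zfp598 KD, 0 were higher and 3 lower (0.916% and 1.04%). Trap1, the mitochondrial HSP90, rose in Fmr1 KD by 0.39 ± 0.10 (adjusted p = 0.0178). Among those that fell in Fmr1 KD were Hspb11, a small protein of intraflagellar transport despite its name, at -0.78 ± 0.18 (adjusted p = 0.0146), and Dnajc21 at -0.48 ± 0.11 (adjusted p = 0.0145). Among those that fell in Zfp598 KD were Dnajb14, an ER membrane J protein, at -0.65 ± 0.11 (adjusted p = 0.00609), and the prefoldin subunit Pfdn1 at -0.57 ± 0.14 (adjusted p = 0.0341). Lonp1, a mitochondrial matrix protease, fell with Fmr1 siRNA B by 0.76 on the log2 scale (adjusted p = 7.25e-05). With that siRNA, 3 of the 5 mitochondrial quality control genes were lower, against 11.3% of all genes. Of 20 ER chaperone genes, a separate list, 12 were lower and 0 higher in Fmr1 KD (3.80% and 2.73% of all genes), with a median of -0.43. Against the same-letter control, 13 ER genes were lower and 1 higher with each Fmr1 siRNA. Of all genes, 13.6% were lower and 10.0% higher with Fmr1 siRNA A, and 11.3% and 11.3% with Fmr1 siRNA B. Zfp598 siRNA A gave 9 lower and 0 higher ER genes (5.64% and 6.30% of all genes). Zfp598 siRNA B gave 5 lower and 1 higher (14.4% and 12.4%).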

How the data were processed

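Total RNA libraries of 18 N2A samples were analysed from whole-number read counts per gene that the authors deposited, made by aligning trimmed reads to GRCm39; per the labels the tools include Trim Galore, STAR, featureCounts and DESeq2. Annotation release, strand setting and treatment of multimapping reads are not given in the sources used here. Genes were named from GENCODE M39. Genes with a count of at least 10 in enough libraries of a condition and a total of at least 15 were kept (17901), scaled by TMM and tested with edgeR 4.0.16 quasi-likelihood fits in R 4.3.3: a pooled model of 3 conditions and a model of 6 siRNA groups. In the pooled model the 6 libraries of a condition count as independent, although 3 share each siRNA. Adjusted p is Benjamini-Hochberg over all genes, and a gene passed under 0.05. SE is the absolute log2 fold change over the square root of F. DESeq2 1.42.0 was an alternative. The scripts were tested on simulated data. Libraries are called replicates as in the labels; where these are not separate cultures, p-values measure the spread between these samples, which may be technical. Between libraries of a siRNA the chi-square per degree of freedom was at least 2.78, so no library was a copy of another. Members and lists were chosen with earlier results of these data known. Genes named in full were Hsf1, Hspa1a, Hspa1b, Dnajb13, those passing in a pooled contrast, and up to 2 of largest change per direction in each 6-group contrast; others were chosen as examples of their role after values were seen.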

Additional observations from a re-analysis of the deposited data

Results flagged for a closer look

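Of 63 sets of 6 libraries (21 members named in full in 3 conditions), 1 held a library apart from the other 5, and chance alone flags about 1 in 20 such sets. The flagged set was Hspa1a in Fmr1 KD, with replicate A2 at 0.0679 CPM against 0 in the other 5. That is a single read, and the rule flags any lone read in a set otherwise at 0.

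The response of 10 members differed between the 2 Fmr1 siRNAs, by the test of the difference itself (B minus A, log2 scale, each against the Scramble siRNA of its letter). The effect was higher with siRNA B for Dnaja1 (0.67), Bag3 (0.59), Stip1 (0.52), Hspa8 (0.43) and Dnajb2 (0.36). It was lower with siRNA B for Dnaja3 (-0.88), Hspa9 (-0.81), Ptges3 (-0.70), Hsp90aa1 (-0.41) and Dnaja2 (-0.34). Both mitochondrial HSP70 partners, Hspa9 and Dnaja3, are among the lower.

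The response of 11 members differed between the 2 Zfp598 siRNAs. The effect was higher with siRNA B for Hsph1 (0.82), Dnaja1 (0.64), Ahsa1 (0.59), Bag3 (0.48) and Dnajc7 (0.33), which act with HSP70 or HSP90. It was lower with siRNA B for the chaperonin subunits Cct4 (-0.60), Cct2 (-0.53), Cct5 (-0.50) and Tcp1 (-0.45), for Cdc37 (-0.43) and for Hspa9 (-0.37). Dnaja1, Bag3 and Hspa9 differed in the same direction for both targets, but both differences subtract the same Scramble pair.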

How the results depend on the processing

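None of the 39 fold changes named in full changed direction under any setting tried. The other calls were checked for direction under the other scalings alone, where none changed sign. The untested fold change of Dnajb13 with Zfp598 siRNA A changed sign, from -0.16 to 0.10 against all 6 Scramble KD libraries. Under another scaling, 1 gene that did not pass changed sign in each pooled contrast and with Fmr1 siRNA B. Of the 39 fold changes named in full, 656 of the fits without 1 library kept the call and 46 lost it, and under other settings 247 kept it and 7 lost it. Those 7 were Hsph1 in Fmr1 KD and Dnajb4 in Zfp598 KD, with no filter on low counts (0.42 and -0.45) and with a replicate block (0.43 and -0.44), and, against all 6 Scramble KD libraries, Hsph1 with Zfp598 siRNA A and B (-0.19 and 0.18) and Dnaja3 with Zfp598 siRNA B (-0.18). The cause was not tested.

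In Fmr1 KD, 3 chaperone genes passed, 5 with the siRNA letter as a term and 7 with DESeq2, which added Hspe1, Hspa8, Hspa1b and Stip1. Over all genes the counts were 1170, 1808 and 1703. In Zfp598 KD, 1 passed, 3 with the letter and 4 with DESeq2, but 0 with no filter on low counts and 0 with a replicate block. Over all genes these were 351, 789, 917, 244 and 201. Requiring a change over 2-fold left 0 in all 11 contrasts. The block, which left 2 genes in Fmr1 KD, moved no other count by over 1.5 times. Whether replicate numbers pair the libraries is not stated, and correlations of deviations from the group mean did not settle it. In 0 of 15 group pairs were all correlations over 0.1, but 11 of 18 libraries correlated best with their own number. For replicate number 3 the correlations were all positive (0.0547 to 0.275).

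Leaving out each library in turn gave 1 to 4 genes in Fmr1 KD (1 without Fmr1 KD replicate A3), 0 to 3 in Zfp598 KD (3 without Zfp598 KD replicate A1, and a moved count in 16 of 18), 5 to 8 and 8 to 14 with Fmr1 siRNA A and B, and 2 to 16 and 10 to 18 with Zfp598 siRNA A and B. Where 1 library of a siRNA was left out, 2 remained. Depth limits Hspa1a, Hspa1b, Hspb1 and Dnajb13, which had few reads.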
